A study of Homo sapiens with 8 samples.

Results

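CTCF and 9 genes of cohesin and its loading and release factors (RAD21, SMC1A, SMC3, STAG1, STAG2, NIPBL, MAU2, WAPL and PDS5A) were followed through acquired resistance to CTCF degradation. They were taken by gene symbol, and they make up 10 of the 60754 rows of the deposited expression table. All 10 passed the filter on low values, which kept 15614 rows with at least 1 TPM (a transcript's share of all transcripts, per length) in at least 1 library. Cohesin is a ring built from SMC1A, SMC3 and RAD21, to which either STAG1 or STAG2 binds. NIPBL and MAU2 load it onto DNA, WAPL and the PDS5 proteins release it, and the zinc finger protein CTCF stops the loops that cohesin extrudes at its binding sites. The same ring holds sister chromatids together, so dividing leukemia cells depend on it.

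The RNA came from SEM cells, a B-cell acute lymphoblastic leukemia line with a rearranged KMT2A gene, in which both CTCF alleles were tagged with miniAID and mClover3 and a lentivirus expressed a mutant form of the plant F-box protein OsTIR1 from the MND promoter, joined to a Zeocin resistance gene. The auxin analog 5-Ph-IAA binds this mutant OsTIR1 and brings it to the miniAID degron, which marks tagged CTCF for degradation. The clones C17.2 and C3.2, each grown from a single cell, had 2 libraries of untreated parental cells and 2 of resistant cells, 8 libraries in all, and every library carried the tag and OsTIR1. Resistant cells had been kept in 1 μM 5-Ph-IAA with 100 μg/ml Zeocin until day 36 and were taken off treatment before harvest. Resistant cells of C3.2 carried a missense change in the miniAID tag and kept full-length CTCF. Resistant cells of C17.2 carried a stop codon in CTCF that removes its C-terminal end together with the tag, and tagged full-length CTCF was also present in them once the drug had been removed. Each clone goes back to 1 cell. The library titles begin with numbers that lie in separate ranges for the 2 clones. What these numbers stand for is not stated, so clone and any batch behind them cannot be told apart. Nothing states that the libraries of a group came from separate cultures, so p-values measure the spread between these libraries, which may be technical.

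Values are given as scaled TPM, the deposited TPM divided by 1 factor for each library (1.12 to 1.16 in C17.2 resistant cells, 0.893 to 1.05 in the other groups). Small nuclear RNAs took 31.2% to 37.6% of the TPM. TPM keeps no read depth, so how deeply each library was sequenced is not known and counting error could not be computed. The marker values that follow are TPM as deposited, not divided by the library factors. Differences between their groups therefore include differences in the factors, which were highest in C17.2 resistant cells. In C3.2 the factors were 0.893 and 0.922 in parental and 0.975 and 0.926 in resistant libraries. Of 7 B-lineage markers, 6 were at 1 TPM or more in every library, and BLNK, the exception, was between 0 and 0.83 TPM. HOXA9 and MEIS1, which KMT2A fusions are known to switch on, were at 51.7 to 87.3 TPM. Their sum was higher in resistant than in parental libraries of C17.2 (158 to 165 against 130 to 145 TPM) and of C3.2 (123 to 140 against 117 to 120 TPM). From parental to resistant cells, mean HOXA9 went from 64.7 to 75.3 TPM in C17.2 and from 56.3 to 55.9 TPM in C3.2. Mean MEIS1 went from 73.0 to 86.4 TPM in C17.2 and from 62.3 to 75.5 TPM in C3.2. Of 5 T cell markers only TRAC (38.6 to 49.2 TPM) reached 1 TPM in every library, CD3D and CD8A were listed at 0. The summed T cell markers were lower in resistant than in parental libraries of C17.2 (38.7 to 39.4 against 45.2 to 49.5 TPM) and of C3.2 (42.3 to 44.3 against 47.3 to 49.3 TPM). The 5 myeloid markers summed to 2.84 to 4.99 TPM in resistant and 3.06 to 3.46 in parental libraries of C17.2, and to 4.03 to 4.15 against 2.65 to 3.03 TPM in C3.2, where the groups did not overlap. Among them the mean of LYZ went from 0.495 to 1.58 TPM in C17.2 and from 0.565 to 1.82 TPM in C3.2. Summed B-lineage markers were 679 to 684 TPM in resistant and 677 to 716 TPM in parental libraries of C17.2, and 589 to 613 against 556 to 586 TPM in C3.2. Within that list, mean CD79B went from 13.3 to 4.47 TPM in C17.2 and from 15.3 to 7.39 in C3.2, BLNK from 0.455 to 0 and from 0.78 to 0.03, and PAX5 from 167 to 189 and from 120 to 152. The part of these markers in the results below was not tested.

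The 10 genes did not move as 1 block. In C17.2 resistant cells CTCF and STAG1 rose while STAG2 and WAPL fell, and in C3.2 resistant cells CTCF and STAG1 rose while STAG2 fell. Counted with limma at an adjusted p under 0.05, 4 of the 10 genes changed in C17.2 (2 higher and 2 lower), where 27.3% of all tested genes did (13.4% higher and 13.9% lower). In C3.2, 3 of the 10 changed (2 higher and 1 lower), where 11.4% of all tested genes did (4.46% higher and 6.90% lower). The median log2 fold change of the 10 genes was -0.042 in C17.2 and -0.018 in C3.2, against 0 for all tested genes in both clones. On TPM as deposited, without library factors, CTCF and STAG1 were the genes called in both clones, and 75.1% of all calls in C17.2 were higher (49.1% with the factors) and 57.8% of those in C3.2 (39.3%). Fold changes here are on the log2(scaled TPM + 1) scale, which understates the change of low genes, and adjusted p-values come from limma with Benjamini-Hochberg adjustment over all 15614 genes. In bulk RNA a lower level in every cell and fewer cells that express a gene cannot be told apart.

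**Figure D1:**
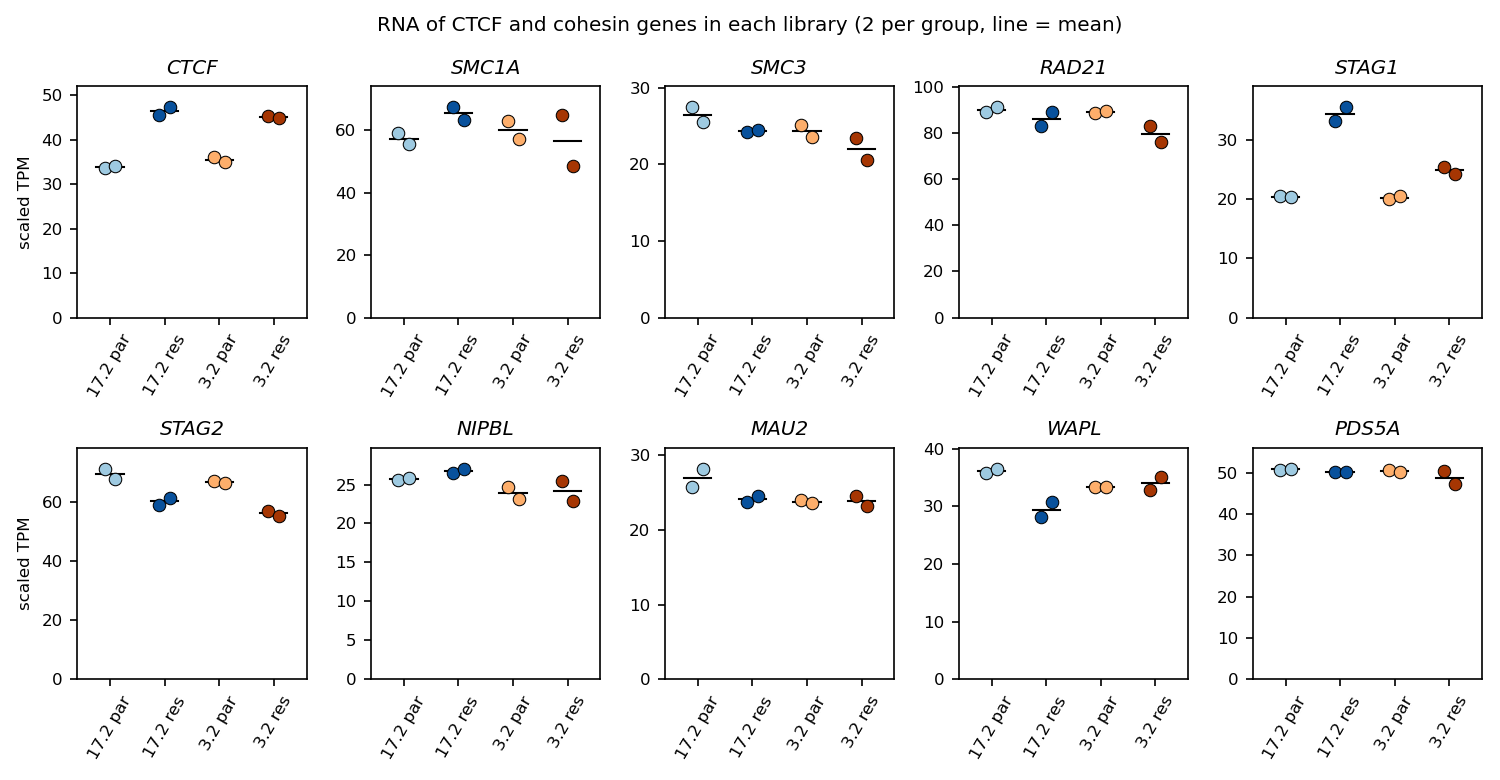
Scaled TPM (vertical axis, from 0) of each of the 10 genes in the 8 libraries, with parental (par) and resistant (res) cells of C17.2 in blue and of C3.2 in orange. Points are libraries and lines are group means. In both clones, both resistant libraries lie above both parental libraries for CTCF and STAG1. They lie below them for STAG2 and for SMC3, which did not pass the threshold.

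In parental cells RAD21, the subunit that closes the ring, had the highest RNA level of the 10 genes and STAG1 the lowest. Because TPM is per transcript length, levels can be compared between genes. In C17.2 parental cells the mean levels were 90.1 scaled TPM for RAD21, 69.7 for STAG2, 57.3 for SMC1A, 50.8 for PDS5A, 36.1 for WAPL, 33.9 for CTCF, 27.0 for MAU2, 26.5 for SMC3, 25.8 for NIPBL and 20.4 for STAG1. MAU2, SMC3 and NIPBL overlapped in their library values, and every other neighbor in this order was separated. C3.2 parental cells had the same top 4 and the same lowest gene, with SMC3, NIPBL and MAU2 again overlapping at 24.4, 23.9 and 23.8 scaled TPM. In C17.2 resistant cells STAG1 had moved from the last to the 6th place and CTCF from the 6th to the 5th, while WAPL had moved from the 5th to the 7th. In C3.2 resistant cells STAG1 was 7th, and its values overlapped those of NIPBL, next in the order. Across the 4 groups all 10 genes lay between the 73.8 and 95.2 percentile of the tested genes.

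CTCF, the tagged gene (ENSG00000102974.16, chromosome 16, 67562467 to 67639177, forward strand of GRCh38), was higher in the resistant cells of both clones. The parental libraries of C17.2 were at 33.7 and 34.1 scaled TPM and the resistant libraries at 45.5 and 47.3. Those of C3.2 were at 36.0 and 35.0 when parental and 45.3 and 44.8 when resistant. The 2 parental groups and the 2 resistant groups each lay close together, and no parental library reached a resistant one. Group means rose 1.37-fold in C17.2 (log2 fold change 0.44, 95% confidence interval 0.34 to 0.54, adjusted p = 0.00079) and 1.27-fold in C3.2 (0.34, 0.24 to 0.44, adjusted p = 0.0068). The changes in the 2 clones differed by 0.11 with a 95% confidence interval of -0.035 to 0.25, which did not pass the limma interaction test (adjusted p = 0.304). The rise in C3.2 missed the threshold when that clone was fitted alone (adjusted p = 0.068, limma) and without C3.2 parental replicate 2 (adjusted p = 0.052, limma).

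The stop codon of C17.2 resistant cells lies in the last whole codon of CTCF exon 11, codon 666 of 727, at chr16:67636848-67636850 of GRCh38 on the forward strand. Written by its place in the reading frame, with the A of the ATG as base 1, it is C1996T. The sequence is shown because it marks where the protein ends, with the codon in capitals, 30 coding bases on each side and exon 12 joined to exon 11 after 1 base beyond the codon.
CTCF codon 666: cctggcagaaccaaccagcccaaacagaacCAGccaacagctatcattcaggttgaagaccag
The normal end of the coding sequence, where the tag was joined, lies in exon 12 at chr16:67637840-67637872, and its stop codon is in capitals.
CTCF normal end: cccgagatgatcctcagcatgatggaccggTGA
Translation up to the new stop keeps 665 of the 727 residues (91.5%), and 62 codons of the reference are lost with the tag. TPM is summed over the gene, so it does not separate RNA with the stop codon from RNA without it.

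Of the 3 genes that encode the ring itself, 0 passed the threshold in either clone in limma. Of all tested genes, 27.3% passed in C17.2 and 11.4% in C3.2. Among the 3, RAD21 in C3.2 had an unadjusted p under 0.05. SMC1A, which pairs with SMC3 to form the arms of the ring, was at 59.0 and 55.6 scaled TPM in C17.2 parental libraries and 67.4 and 63.3 in resistant libraries. In C3.2 it was at 62.9 and 57.1 in parental libraries and 64.8 and 48.6 in resistant libraries, the widest gap between replicates of any of the 10 genes. The groups did not overlap in C17.2 and did in C3.2, and the log2 fold changes of 0.19 (95% confidence interval -0.13 to 0.50, adjusted p = 0.337) and -0.094 (-0.41 to 0.22, adjusted p = 0.692) carried the largest errors in the set. The difference between the clones, 0.28, had an adjusted p of 0.385 in limma with all libraries and passed without C3.2 resistant replicate 1 (0.48, adjusted p = 0.046).

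SMC3 was at 27.5 and 25.5 scaled TPM in parental and 24.2 and 24.5 in resistant libraries of C17.2. It was at 25.2 and 23.5 against 23.4 and 20.6 in C3.2. Both clones had every resistant library below every parental one, with log2 fold changes of -0.11 (-0.29 to 0.064, adjusted p = 0.302) and -0.14 (-0.32 to 0.037, adjusted p = 0.273) that did not pass. On TPM as deposited the groups overlapped in both clones. In C17.2 they were at 28.8 and 25.2 TPM in parental and 27.2 and 28.3 in resistant libraries. In C3.2 they were at 22.5 and 21.7 against 22.8 and 19.1 TPM. RAD21 was at 89.0 and 91.2 scaled TPM in C17.2 parental libraries and 83.0 and 89.0 in resistant libraries, and at 88.8 and 89.3 against 83.1 and 76.2 in C3.2. The groups of RAD21 overlapped in C17.2 and did not in C3.2, and neither log2 fold change passed (-0.067, adjusted p = 0.431, and -0.16 with a 95% confidence interval of -0.30 to -0.023, adjusted p = 0.130). The 3' end of RAD21 overlaps UTP23 on the opposite strand (9.33 to 13.5 TPM), and whether reads were counted by strand is not stated.

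**Figure D2:**
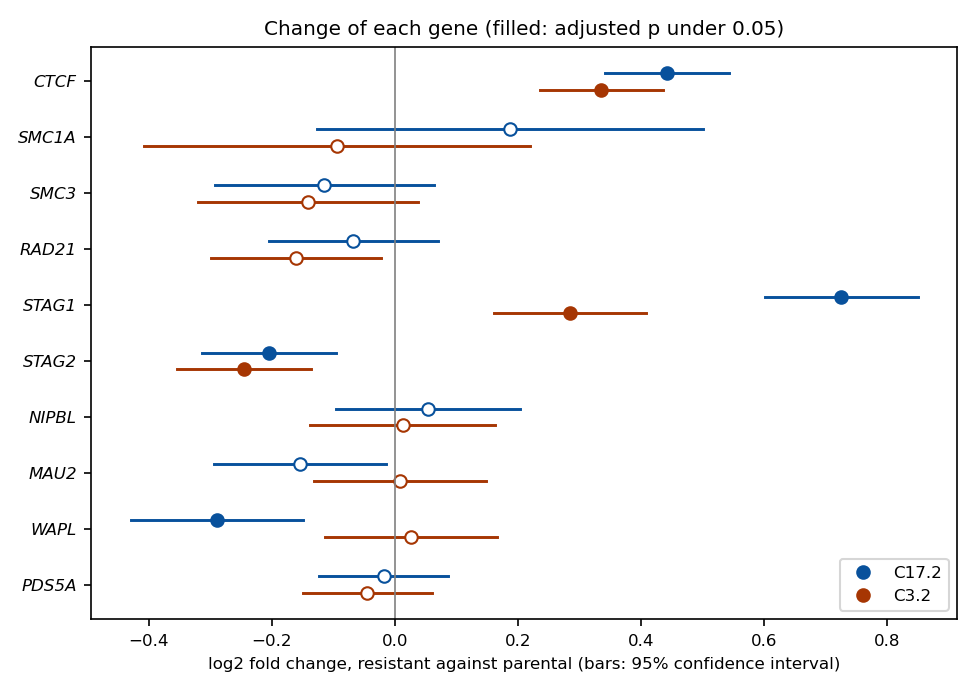
Log2 fold change of resistant against parental cells (horizontal axis) for each gene, with C17.2 in blue and C3.2 in brown. Bars are 95% confidence intervals from limma and filled points passed an adjusted p of 0.05, which CTCF, STAG1 and STAG2 did in both clones and WAPL in C17.2.

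STAG1 and STAG2, the alternative subunits of which each cohesin ring holds 1, moved in opposite directions in both clones. STAG1 (ENSG00000118007.13, chromosome 3, 136336236 to 136752403, reverse strand of GRCh38) was at 20.5 and 20.3 scaled TPM in C17.2 parental libraries and at 33.2 and 35.6 in resistant libraries. In C3.2 it was at 20.0 and 20.5 in parental and 25.5 and 24.3 in resistant libraries. The parental libraries of the 2 clones overlapped, every resistant library lay above every parental one, and both C17.2 resistant libraries lay above those of C3.2. The means rose 1.69-fold in C17.2 (log2 fold change 0.73, standard error 0.051, adjusted p = 0.00028), the largest change of the 10 genes, and 1.23-fold in C3.2 (0.28, standard error 0.051, adjusted p = 0.021).

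STAG1 was the 1 gene of the 10 whose change differed between the clones (0.44, 95% confidence interval 0.27 to 0.62, adjusted p = 0.017 from the limma interaction test), where 9.91% of all tested genes differed. This difference kept its size when single libraries were left out (0.39 to 0.49), but missed the threshold without either parental replicate of C17.2 (adjusted p = 0.068 and 0.070) and without either parental replicate of C3.2 (0.065 and 0.072, all from limma). The rise in C3.2 was lost when that clone was fitted alone (adjusted p = 0.096, limma). It was also lost without C17.2 parental replicate 1 or 2 (0.052 and 0.052), C3.2 parental replicate 1 or 2 (0.116 and 0.088) or C3.2 resistant replicate 1 (0.056, all adjusted p from limma). The rise in C17.2 passed under all 8 processing alternatives and without each library.

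STAG2 (ENSG00000101972.18, chromosome X, 123960212 to 124422664, forward strand of GRCh38) was the most abundant STAG transcript in every library. It was at 71.4 and 67.9 scaled TPM in C17.2 parental libraries and 59.2 and 61.4 in resistant libraries. The C3.2 values were 67.3 and 66.4 in parental and 57.1 and 55.4 in resistant libraries. Resistant libraries were below parental ones in both clones without overlap, with log2 fold changes of -0.20 (-0.31 to -0.096, adjusted p = 0.018) and -0.25 (-0.35 to -0.14, adjusted p = 0.022) from limma. On TPM as deposited the fall shrank to -0.045 in C17.2 (adjusted p = 0.685, with overlapping groups at 75.0 and 67.1 against 66.4 and 71.0 TPM) and to -0.18 in C3.2 (adjusted p = 0.195). On that scale the median of all tested genes was shifted by 0.13 in C17.2 and by 0.053 in C3.2.

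The call for STAG2 was also lost on TPM rescaled over protein-coding genes (adjusted p = 0.092 in C17.2 and 0.081 in C3.2) and, in C3.2, under quantile normalization (0.072) and with the clone fitted alone (0.086). Among single libraries it was lost in C17.2 without parental replicate 1 (0.080) or resistant replicate 1 (0.073), and in C3.2 without parental replicate 1 (0.114), parental replicate 2 (0.092) or resistant replicate 2 (0.076), all adjusted p from limma.

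The balance within the STAG pair does not depend on how libraries are scaled. STAG1 made up 22.3% and 23.0% of the summed TPM of STAG1 and STAG2 in C17.2 parental libraries and 35.9% and 36.7% in resistant libraries. In C3.2 the share was 22.9% and 23.6% in parental and 30.9% and 30.5% in resistant libraries. The parental libraries of both clones spanned 22.3% to 23.6%, and all resistant libraries were above them. The means went from 22.7% ± 0.517 to 36.3% ± 0.524 in C17.2 and from 23.3% ± 0.483 to 30.7% ± 0.229 in C3.2 (SD, n = 2 each). The log2 ratio of STAG2 to STAG1 fell by 0.96 in C17.2 and by 0.55 in C3.2, a mean change of -0.75 (exact two-sided permutation test within clones p = 0.0556, the smallest its 36 arrangements allow, and 0.130 adjusted over 7 ratios).

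**Figure D3:**
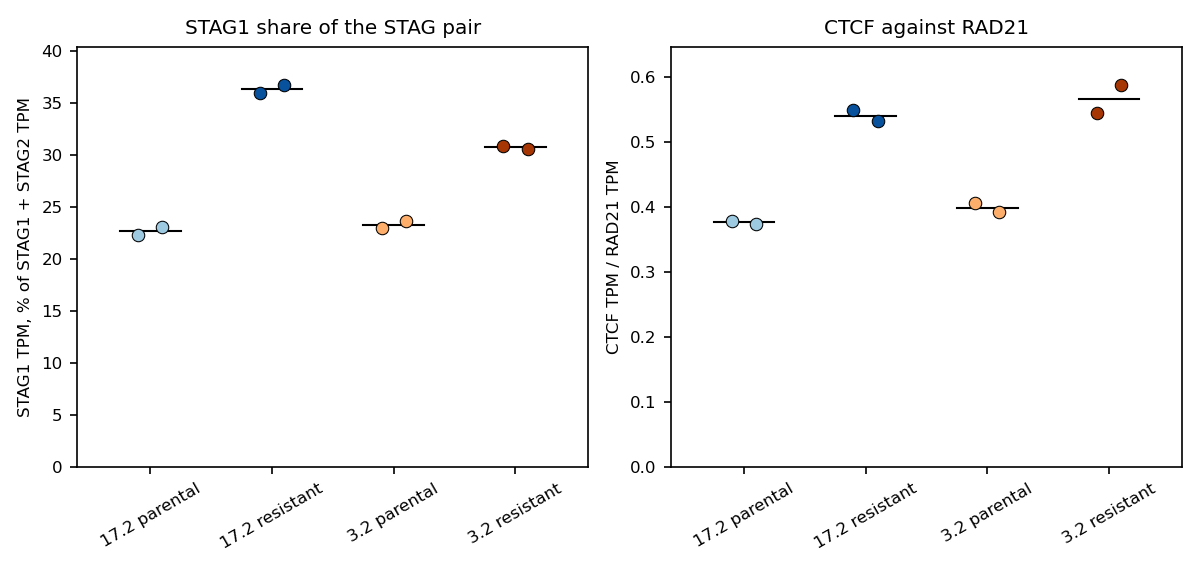
STAG1 TPM as a percentage of STAG1 and STAG2 together (left) and the ratio of CTCF to RAD21 TPM (right) in each library, with lines at the group means and axes from 0. Parental libraries of both clones lie near 23% and resistant libraries near 36.3% (C17.2) and 30.7% (C3.2), and the CTCF to RAD21 ratio is higher in every resistant library than in every parental one.

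STAG1 shares its span with other rows of the table. PCCB, which encodes a subunit of propionyl-CoA carboxylase and meets the end of STAG1 on the opposite strand, was at 11.8 to 17.9 TPM, with log2 fold changes of 0.32 in C17.2 (adjusted p = 0.018) and 0.27 in C3.2 (adjusted p = 0.062). The pseudogene DNAJC8P2, inside STAG1 on the same strand, was at 4.17 to 10.97 TPM and rose by 0.63 (adjusted p = 0.0037) and 0.43 (adjusted p = 0.032, all from limma). How reads were divided among these overlapping rows was not tested. The 20 nearest tested protein-coding genes around STAG1, in a window of 8.69 Mb, had median log2 fold changes of -0.0044 in C17.2 and -0.029 in C3.2. Of these, 3 were higher and 2 lower in C17.2, where 27.3% of all tested genes changed. In C3.2, 1 was higher and 1 lower, where 11.4% of all tested genes changed.

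NIPBL and MAU2, which together form the cohesin loader, did not pass in either clone in limma, and MAU2 in C17.2 had an unadjusted p under 0.05. NIPBL was at 25.6 and 25.9 scaled TPM in C17.2 parental and 26.5 and 27.1 in resistant libraries, and at 24.8 and 23.1 against 25.4 and 22.9 in C3.2. Its log2 fold changes were 0.054 (95% confidence interval -0.096 to 0.20, adjusted p = 0.570) and 0.013 (-0.14 to 0.16, adjusted p = 0.929). MAU2 was at 25.8 and 28.2 scaled TPM in C17.2 parental and 23.8 and 24.5 in resistant libraries, and at 24.0 and 23.6 against 24.6 and 23.3 in C3.2. The groups of MAU2 were separate in C17.2, with all resistant libraries lower, and overlapped in C3.2. Its log2 fold changes were -0.15 (-0.29 to -0.014, adjusted p = 0.1003) and 0.0079 (-0.13 to 0.15, adjusted p = 0.955).

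WAPL, the factor that opens the ring and releases it from DNA, fell in C17.2. It was at 35.7 and 36.6 scaled TPM in parental and 28.1 and 30.7 in resistant libraries of that clone. In C3.2 it was at 33.4 and 33.3 in parental and 32.9 and 35.1 in resistant libraries, which overlapped. Both C17.2 resistant libraries were below every other library, at 0.814 of the parental mean (log2 fold change -0.29, 95% confidence interval -0.43 to -0.15, adjusted p = 0.013), against 1.02 of it in C3.2 (0.026, -0.11 to 0.17, adjusted p = 0.826). The difference between clones of -0.32 (-0.51 to -0.12) had an adjusted p of 0.063 in the limma interaction test, 0.0497 under quantile normalization, where it passed, and 0.046 among the genes at 1 TPM or more in all libraries.

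The fall of WAPL in C17.2 shrank to -0.13 on TPM as deposited (adjusted p = 0.186, with groups at 37.5 and 36.1 against 31.5 and 35.5 TPM). It also missed the threshold without C17.2 parental replicate 1 (0.061), parental replicate 2 (0.076) or resistant replicate 1 (0.053, all adjusted p from limma). PDS5A, which binds the ring and takes part both in its release and in keeping cohesion, had the narrowest range over the 8 libraries relative to its level, 47.2 to 51.0 scaled TPM. Its scaled TPM was 50.6 and 51.0 in C17.2 parental and 50.2 and 50.1 in resistant libraries, and 50.5 and 50.1 against 50.3 and 47.2 in C3.2. The log2 fold changes were -0.018 (-0.12 to 0.087, adjusted p = 0.804) and -0.045 (-0.15 to 0.060, adjusted p = 0.553).

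**Figure D4:**
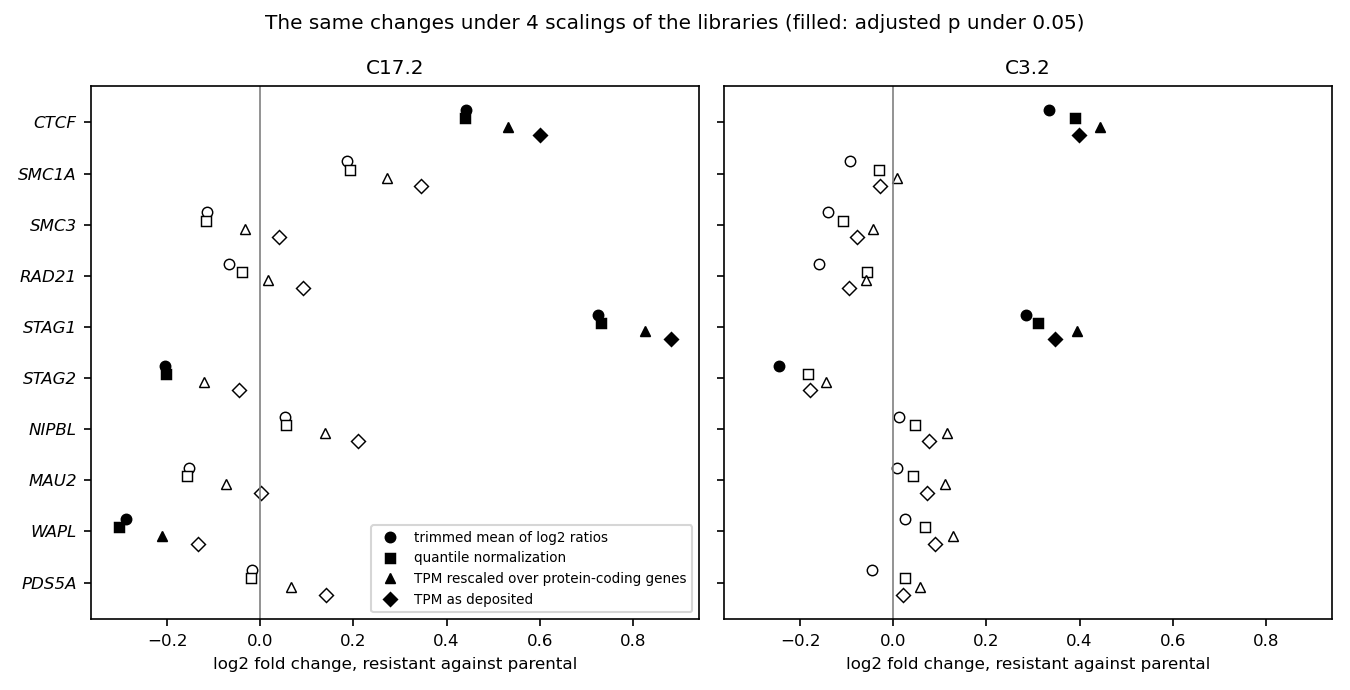
Log2 fold change of resistant against parental cells (horizontal axis) for the 10 genes in C17.2 (left) and C3.2 (right) under 4 ways of scaling the libraries, marked by shape. Filled points passed an adjusted p of 0.05, which CTCF and STAG1 did under all 4 scalings in both clones, while STAG2 did under 2 in C17.2 and under 1 in C3.2.

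Set against ring subunits within each library, CTCF RNA was also higher in resistant cells. The ratio of CTCF to RAD21 TPM was 0.379 and 0.374 in C17.2 parental and 0.549 and 0.532 in resistant libraries, and 0.405 and 0.392 against 0.545 and 0.588 in C3.2. All 4 resistant libraries were above all 4 parental libraries, with log2 differences of 0.52 in C17.2 and 0.51 in C3.2. Against the log2 mean of SMC1A, SMC3, RAD21, STAG1 and STAG2 the differences were 0.34 and 0.42. Both ratios gave p = 0.0556 in the exact two-sided permutation test within clones, the smallest value that test can give, and 0.130 adjusted over the 7 ratios. The other 4 ratios had smaller mean log2 differences, at 0.18 for SMC1A to SMC3 (exact permutation p = 0.167), 0.11 for NIPBL to MAU2 (p = 0.111), 0.17 for NIPBL to WAPL (p = 0.222) and -0.12 for PDS5A to PDS5B (p = 0.333). For NIPBL to WAPL the difference was 0.35 in C17.2 and -0.013 in C3.2, and for PDS5A to PDS5B it was -0.29 and 0.049.

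Between the parental cells of the 2 clones 0 of the 10 genes differed in limma, where 22.5% of all tested genes did, and 1 gene, MAU2, had an unadjusted p under 0.05. Its level was 27.0 scaled TPM in C17.2 and 23.8 in C3.2 (log2 difference 0.17, 95% confidence interval 0.035 to 0.31, adjusted p = 0.078). For CTCF the log2 difference between parental clones was -0.064 (-0.16 to 0.036), for STAG1 0.0078 (-0.12 to 0.13) and for STAG2 0.058 (-0.050 to 0.17). MAU2 passed on TPM as deposited (0.33), on TPM rescaled over protein-coding genes (0.26) and under quantile normalization (0.21), and WAPL passed on TPM as deposited (0.27, against 0.11). On TPM as deposited the median of all tested genes was shifted by 0.14 between the parental clones.

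The other regulators of cohesin were taken from a list of 13 genes, of which 11 were tested. In C17.2, 3 rose, 1 fell and 7 did not pass, where 27.3% of all tested genes changed (13.4% higher and 13.9% lower), with a median log2 fold change of 0.083 against 0 for all tested genes. PTTG1, the securin that holds back separase, was at 103 and 103 scaled TPM in parental and 146 and 151 in resistant libraries (0.52, adjusted p = 0.0015). PDS5B, the paralog of PDS5A, was at 46.8 and 48.6 against 55.4 and 59.7 (0.27, adjusted p = 0.015). ESCO2, which acetylates SMC3 during replication, was at 16.4 and 18.5 against 21.7 and 21.7 (0.30, adjusted p = 0.016). In each of these 3 genes both resistant libraries were above both parental ones. REC8, the meiotic counterpart of RAD21, was at 13.8 and 12.9 against 10.7 and 10.2 (-0.33, adjusted p = 0.0495, all from limma).

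In C3.2, 2 of the 11 fell, 0 rose and 9 did not pass, where 11.4% of all tested genes changed (6.90% lower), with a median of -0.043. REC8 was at 4.14 and 3.76 scaled TPM in parental and 1.31 and 1.75 in resistant libraries (-0.97, adjusted p = 0.0034). STAG3, the meiotic STAG subunit, was at 1.88 and 1.80 against 0.749 and 0.853 (-0.66, adjusted p = 0.038). The changes of 3 of the 11 genes differed between clones in the limma interaction test, against 9.91% of all tested genes. These were REC8 (0.65, adjusted p = 0.035), PTTG1 (0.54, adjusted p = 0.013) and PDS5B (0.36, adjusted p = 0.038). PTTG1 was at 167 and 166 scaled TPM in C3.2 parental and 155 and 174 in resistant libraries, so both groups of C3.2 lay above both groups of C17.2. The meiotic genes SMC1B and RAD21L1 were not tested, since SMC1B was listed at 0 in all libraries and RAD21L1 stayed at or under 0.21 TPM.

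Further lists held other loop and chromosome factors. Of 9 architectural factors, 8 were tested and 0 passed in limma in either clone, where 27.3% (C17.2) and 11.4% (C3.2) of all tested genes did. An unadjusted p under 0.05 was found for 1 gene in C17.2 (TOP2B, -0.16) and 1 in C3.2 (LDB1, -0.21). CTCFL, the germline relative of CTCF, was listed at 0 in all libraries. Their median log2 fold changes were 0.026 and -0.073. Of the 8 subunits of condensin, the ring that compacts mitotic chromosomes, 3 rose in C17.2, where 13.4% of all tested genes did, and these were NCAPG2 (0.22, adjusted p = 0.0081), SMC2 (0.23, adjusted p = 0.025) and NCAPD3 (0.22, adjusted p = 0.032). In C3.2, 0 condensin genes passed in limma, where 11.4% of all tested genes did, and 1 (NCAPG, -0.20) had an unadjusted p under 0.05. The condensin medians were 0.12 in C17.2 and -0.0015 in C3.2. In the interaction test 0 condensin genes passed, where 9.91% of all tested genes did, with 3 at an unadjusted p under 0.05.

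Of the 8 genes of the SMC5/6 complex, which acts in DNA repair, 1 passed in C17.2 and 3 in C3.2, where 27.3% and 11.4% of all tested genes did. NSMCE4A fell in both clones. It was at 14.2 and 16.1 scaled TPM in parental and 8.35 and 9.88 in resistant libraries of C17.2 (-0.67, adjusted p = 0.0037), and at 16.1 and 16.2 against 10.5 and 11.7 in C3.2 (-0.50, adjusted p = 0.025). In C3.2 SLF2 rose (0.25, adjusted p = 0.023) and NSMCE2 fell (-0.23, adjusted p = 0.032, all from limma), and the other 5 did not pass. The medians of the 8 were -0.029 and 0.010.

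Over 8 processing alternatives and 8 single libraries left out, the calls for PTTG1, NCAPG2 and NSMCE4A in C17.2 passed in all 16, and that for REC8 in C3.2 in 15. The calls for NSMCE2 in C3.2 and for REC8 in C17.2 each passed in 4 of 16, and that for STAG3 in C3.2 in 6 of 15, since it was not tested among genes at 1 TPM in all libraries. Among the processing alternatives, fitting the clone alone ended the calls for ESCO2 (adjusted p = 0.066) and SMC2 (0.063) in C17.2 and for REC8 (0.084), NSMCE4A (0.086) and SLF2 (0.111) in C3.2. Using no filter ended those for NCAPD3 in C17.2 (0.052) and NSMCE4A in C3.2 (0.058), eBayes without trend that for NCAPD3 (0.057), and TPM as deposited that for SLF2 (0.0504). The call for REC8 in C17.2 was lost under 6 processing alternatives (0.058 to 0.194), that for NSMCE2 under 4 (0.0503 to 0.189) and that for STAG3 under 3 (0.066 to 0.077, all adjusted p from limma). REC8 lost its call in C17.2 without any 1 of the 4 C17.2 libraries or either parental library of C3.2 (adjusted p 0.083 to 0.217). The call for SMC2 was lost without C17.2 parental replicate 1 (adjusted p = 0.117), parental replicate 2 (0.083) or resistant replicate 2 (0.098). That for PDS5B was lost without the same 3 libraries (0.085, 0.053 and 0.068), and that for ESCO2 without C17.2 resistant replicate 1 (0.070) or 2 (0.077). NCAPD3 lost its call without any of the 4 C17.2 libraries (0.092 to 0.125) or either parental library of C3.2 (0.052 and 0.052, all adjusted p from limma). In C3.2, NSMCE2 lost its call without any 1 of the 8 libraries (0.053 to 0.133). NSMCE4A and SLF2 lost theirs without any 1 of the 4 C3.2 libraries or either parental library of C17.2 (0.053 to 0.134 and 0.052 to 0.118). STAG3 did so without any 1 of the C3.2 libraries or either resistant library of C17.2 (0.056 to 0.152, all adjusted p from limma).

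**Figure D5:**
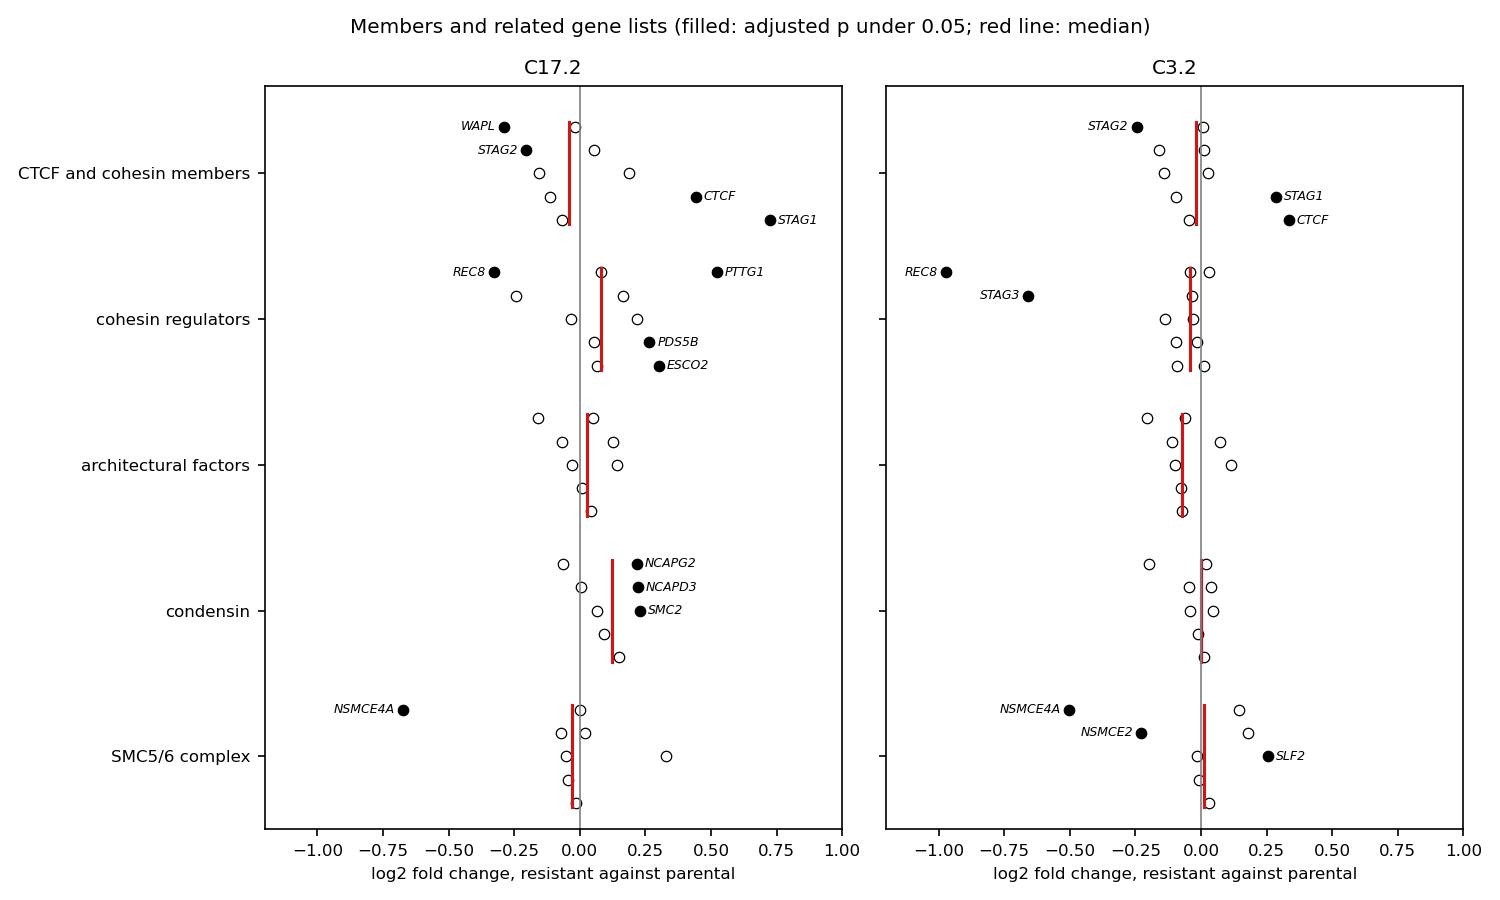
Log2 fold change of resistant against parental cells (horizontal axis) for the 10 genes and the tested genes of 4 related lists, in C17.2 (left) and C3.2 (right). Each point is a gene, filled and named where the adjusted p was under 0.05, red lines are list medians, and the vertical spread within a list has no meaning. STAG1 lies farthest to the right in C17.2 and REC8 farthest to the left in C3.2.

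Across the 8 libraries, the pattern of CTCF was followed most closely, among 8564 protein-coding genes with a mean of at least 5 TPM, by DOCK1 (Pearson's r = 0.989), NABP2 (0.987), TOR1AIP2 (0.987), CAMSAP2 (0.984) and PTPN6 (0.983). The libraries form 4 groups of 2, so the points are not 8 separate conditions. DOCK1, an activator of the GTPase RAC, changed by 0.69 in C17.2 and 0.53 in C3.2, and NABP2, a single-stranded DNA binding protein, by 0.44 and 0.27. Among the other 9 genes, r with CTCF was highest for STAG1 (0.87) and lowest for STAG2 (-0.90), and for the ring subunits it was 0.24 for SMC1A, -0.58 for SMC3 and -0.64 for RAD21. The 20 nearest tested protein-coding neighbors of CTCF had median log2 fold changes of 0.064 in C17.2 and 0.056 in C3.2. A non-coding RNA that overlaps the start of CTCF on the opposite strand, ENSG00000261386, was at 0.31 to 2.13 TPM, with log2 fold changes of -1.03 (adjusted p = 0.0073) and -0.54 (adjusted p = 0.108, both from limma).

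The promoters of CTCF and STAG1, the genes that rose in both clones, are shown from RefSeq (GRCh38.p14), read along the strand of the gene. They run from 250 bases before to 50 bases after a start site, which differs from the gene start given above. Capitals mark exact matches on either strand to 8 short motifs that were searched, which are CCGGAAG (ETS), ATGGCGGC (YY1), GCGCATGCG (NRF1), TTTCCCGC and TTTGGCGC (E2F), ACTACAATT (ZNF143), CCAAT (NFY) and GGGCGG (SP and KLF factors). In the CTCF promoter, chr16:67562276-67562575 on the forward strand, the capitals are 2 matches to GGGCGG and 1 to ATGGCGGC, all on the opposite strand.
CTCF promoter: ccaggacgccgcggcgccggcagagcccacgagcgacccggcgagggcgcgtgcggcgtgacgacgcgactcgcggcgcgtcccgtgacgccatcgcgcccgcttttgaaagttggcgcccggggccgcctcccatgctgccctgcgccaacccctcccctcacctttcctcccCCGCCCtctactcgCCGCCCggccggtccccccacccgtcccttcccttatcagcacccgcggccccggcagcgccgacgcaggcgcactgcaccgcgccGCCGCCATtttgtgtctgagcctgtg
In the STAG1 promoter, chr3:136752329-136752628 on the reverse strand, the capitals are 3 matches to GGGCGG, 2 to CCAAT and 1 to TTTCCCGC, and the last overlaps a GGGCGG match on the opposite strand.
STAG1 promoter: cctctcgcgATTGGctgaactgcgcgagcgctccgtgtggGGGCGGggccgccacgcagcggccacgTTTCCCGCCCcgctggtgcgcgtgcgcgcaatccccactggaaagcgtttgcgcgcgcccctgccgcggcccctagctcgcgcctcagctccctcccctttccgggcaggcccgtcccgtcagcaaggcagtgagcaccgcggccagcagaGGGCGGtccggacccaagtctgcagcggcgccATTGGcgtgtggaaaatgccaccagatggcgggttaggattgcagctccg

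RefSeq promoters were matched for 9 of the 10 genes, RAD21 being the exception, and gave 12 windows of 300 bases, 2 of them for SMC1A, which overlap, and 3 for STAG2. GGGCGG was found in 12 of the 12 windows, against 45.0% of all 35116 promoter windows. ATGGCGGC was found in 3 windows, those of CTCF, MAU2 and SMC3, against 3.00% of all promoters, TTTCCCGC in 2, of SMC1A and STAG1 (1.63%), and TTTGGCGC in 2, of NIPBL and STAG2 (0.652%). CCAAT was found in 5 windows, of PDS5A, STAG1, STAG2 and WAPL (34.6%), and CCGGAAG in 3, of NIPBL and SMC1A (10.3%), with the same SMC1A match in both of its windows. GCGCATGCG and ACTACAATT matched in 0 of the 12 (1.92% and 0.336% of all promoters). The 12 windows had a median GC content of 66.3% and 32 CpG sites, against 58.7% and 14 over all promoters. CTCF and STAG1, which rose in both clones, shared the GGGCGG motif and no other of the motifs searched in these windows. A match to a motif is a description of the sequence and not a bound site.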

How the data were processed

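RNA-seq of 8 libraries was used, with groups taken from the clone label. The authors depleted ribosomal RNA, used Trim Galore 0.6.3 for trimming and STAR 2.7.9a for alignment to GRCh38.p13, estimated transcript abundance in RSEM 1.3.1 with the Gencode release 31 annotation, and deposited the values as TPM, a row for each gene. The labels state single-end reads and the study's methods paired-end reads. The study's limma-voom fit needs counts and was not repeated.

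Library factors were trimmed means of log2 ratios (trim 30% for ratios and 5% for mean levels, at either end), rows under 1 TPM in every library were removed, and log2(scaled TPM + 1) was fitted in limma 3.58.1 (R 4.3.3; lmFit, contrasts.fit, eBayes with intensity trend) in 1 model of the 4 groups with no covariate. The contrasts compared resistant with parental cells of a clone, these changes between clones, and the parental cells of the clones. Tests were two-sided, with Benjamini-Hochberg adjustment and a threshold of 0.05. Ratios of 2 genes within a library, with no pseudocount, were compared by exact permutation within clones. With 2 libraries against 2, a permutation within 1 clone cannot go below p = 0.333.

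The 10 genes and the 4 lists (38 genes, 35 tested) were chosen with earlier results of these data known. Named were the 10 genes, listed genes with an adjusted p under 0.05 in a clone or in the difference (TOP2B, LDB1 and NCAPG were named after their values were seen), the 5 genes most correlated with CTCF, and rows that overlap a member. Overlaps, neighbors and the CTCF exons came from Gencode release 44 on GRCh38 (99.5% of identifiers matched). The 8 processing alternatives were TPM as deposited, TPM rescaled over protein-coding genes, quantile normalization, a pseudocount of 0.1, no filter (30771 genes), at least 1 TPM in all libraries (12301 genes), each clone fitted alone, and eBayes without trend. Each library was also left out in turn, which leaves 1 library in a group that is assumed to vary like the others. Tested on simulated data of 15614 genes for the C17.2 comparison, the fit recovered 35% of 100 genes changed by a log2 value of 0.5 and 78% of 100 changed by 1, with 3.42% of calls false. The simulated libraries were independent, and far fewer genes were changed than the 27.3% called in C17.2. These rates may therefore not hold for the real libraries. The 2 libraries of a group had Pearson's r of 0.968 to 0.979 across genes. This does not show whether they are independent replicates, which is not stated. Tables were made in pandas 2.3.3 (Python 3.11.15), and figures in matplotlib 3.10.9.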

Additional observations from a re-analysis of the deposited data

Results flagged for a closer look

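The following changes differed between the clones by the limma interaction test over all tested genes, given as the log2 change in C17.2 minus that in C3.2, with adjusted p-values. In this test 1 of the 10 genes and 3 of the 11 tested cohesin regulators passed, where 9.91% of all tested genes did. For STAG1 the difference was 0.44 (adjusted p = 0.017), and STAG1 was higher in both resistant libraries than in both parental libraries of each clone. For PTTG1 it was 0.54 (adjusted p = 0.013), for REC8 0.65 (adjusted p = 0.035) and for PDS5B 0.36 (adjusted p = 0.038). PTTG1 and PDS5B were higher in both resistant libraries of C17.2, and REC8 was lower in both resistant libraries of each clone. REC8 and PTTG1 also differed between the parental cells of the clones, by 1.54 (adjusted p = 0.00031) and -0.69 (adjusted p = 0.00090), whereas the 95% confidence interval for STAG1 was -0.12 to 0.13. The difference between clones in the change of STAG1 ranged from 0.39 to 0.49 with single libraries left out. It missed the threshold without either parental library of either clone. The difference for PTTG1 missed the threshold without either parental library of either clone or C17.2 resistant replicate 2 (adjusted p 0.058 to 0.066). That for REC8 did so without any 1 of the 4 C17.2 libraries or either parental library of C3.2 (0.092 to 0.135) and with no filter (0.082). That for PDS5B did so without either parental library of either clone or resistant replicate 2 of either clone (0.082 to 0.131), and under 4 processing alternatives (0.051 to 0.075).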

How the results depend on the processing

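CTCF and STAG1 in C17.2 passed the threshold under all 8 processing alternatives and without each library, with ranges of 0.41 to 0.60 for CTCF and 0.68 to 0.88 for STAG1. The number of the 10 genes called in C17.2 was 4, and it was 2 on TPM as deposited and 2 to 4 with single libraries left out. In C3.2 it was 3, and it was 0 with the clone fitted alone (where 74 of all genes passed, against 1773) and 0 to 3 with single libraries left out, being 0 without C3.2 parental replicate 2 and 1 without parental replicate 1. For the difference between clones it was 1, and it was 2 under quantile normalization and among genes at 1 TPM in all libraries, and 0 to 2 with single libraries left out. For the parental clones it was 0, and it was 2 on TPM as deposited, 1 on TPM rescaled to the protein-coding total and 1 under quantile normalization. Of the listed genes, 8 passed in C17.2 (6 higher, 2 lower), against 15 on TPM as deposited (14 higher, 1 lower) and 13 on rescaled TPM (12 higher, 1 lower). In C3.2, 5 passed, against 2 on TPM as deposited. Counts over all genes moved too. Of the 15614 tested genes, 4261 passed in C17.2, against 5128 on TPM as deposited and 4859 on rescaled TPM. In C3.2, 1773 passed, against 1239 on TPM as deposited. The difference between clones gave 1548, against 1449 under quantile normalization and 1751 of 12301 genes at 1 TPM in all libraries. The parental clones gave 3516, against 3898 on TPM as deposited, 3763 on rescaled TPM and 3325 under quantile normalization.

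Several log2 fold changes that did not pass changed sign. TPM as deposited leaves out the library factors. On that scale the median of all tested genes was shifted by 0.13 in C17.2, 0.053 in C3.2 and 0.14 between the parental clones. For the other settings the cause was not tested. On TPM as deposited, C17.2 gave 0.092 for RAD21, 0.041 for SMC3, 0.0018 for MAU2 and 0.14 for PDS5A, C3.2 gave 0.020 for PDS5A, and the parental clones gave 0.097 for CTCF and 0.0997 for SMC1A. On TPM rescaled over protein-coding genes, C17.2 gave 0.017 for RAD21 and 0.066 for PDS5A, C3.2 gave 0.0082 for SMC1A and 0.058 for PDS5A, and the parental clones gave 0.012 for CTCF and 0.014 for SMC1A. Under quantile normalization, PDS5A in C3.2 was 0.024, and the differences between clones were -0.0089 for SMC3, -0.019 for STAG2 and -0.044 for PDS5A. With single libraries left out, C3.2 values ranged from -0.30 to 0.11 for SMC1A, -0.059 to 0.084 for NIPBL, -0.030 to 0.046 for MAU2 and -0.020 to 0.072 for WAPL. Differences between clones ranged from -0.062 to 0.12 for SMC3, -0.031 to 0.11 for NIPBL and -0.017 to 0.071 for PDS5A. Parental differences ranged from -0.0011 to 0.033 for RAD21, -0.13 to 0.0047 for SMC1A and -0.0087 to 0.024 for STAG1.

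The share of higher genes among all calls in C17.2 was 49.1%, and 75.1% on TPM as deposited and 64.6% on rescaled TPM. In C3.2 it was 39.3%, and 57.8%, 69.7% and, under quantile normalization, 50.8%. The titles number the parental libraries 1 and 2 and the resistant libraries 3 and 4 in both clones. No paired analysis was possible within a clone because its parental and resistant libraries share no number. Between clones, a fit with the library number as a block, chosen after seeing the data, called 0 of the 10 genes in the difference (1 without the block, STAG1, at an adjusted p of 0.076 with it) and 0 between parental clones, and 600 and 2473 of all genes (1548 and 3516 without it). The difference between the 2 libraries of a group, higher number minus lower, was correlated between the clones across genes. Its r was -0.11 in parental and 0.019 in resistant cells. With 1 such difference per clone and state, these values cannot show whether same-numbered libraries shared a culture or preparation, which was not tested. With the parental numbers crossed, also chosen after seeing the data, the counts were 0 and 0 of the 10 genes and 549 and 2446 of all genes. TPM keeps no depth, so the counting error of single values cannot be given.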
